A study of Mus musculus with 6 samples.

Results

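The collagen genes of the mouse left ventricle were examined as a family. They were taken as the protein-coding genes whose symbol has the form Col, a number, the letter a and a number, which gave 44 of the 43629 genes in the count tables. RNA came from the left ventricles of 6 male CD-1 mice, all F1 offspring and 1 year old. Of these mice, 3 came from dams injected intraperitoneally once a day with saline vehicle, and the other 3 from dams injected with 20 mg/kg caffeine. The exposure ran from E6.5 to E9.5, although another field of the labels ends it at E10.5. CD-1 is an outbred stock, and the dam and litter of each mouse are not stated, so the p-values measure the spread between these hearts, some of which may have shared a litter. The comparison addressed whether adult hearts exposed to caffeine as embryos differed in gene expression from vehicle controls.

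Collagens are trimeric proteins of the extracellular matrix, built from alpha chains that wind into a triple helix and are each encoded by a gene of their own. In the heart, fibrillar collagens of types I and III form the fibres between and around the muscle bundles, and type V is built into those fibres. Type IV collagen forms a network in the basement membrane around each cardiomyocyte and capillary, where the multiplexin types XV and XVIII also lie, and types VI, VIII and XIV belong to finer networks or bind to the surface of fibres. Cardiac fibroblasts make most of the fibrillar chains, and many cell types contribute type IV. By these classes the family held 11 fibrillar, 8 basement membrane and 25 other genes.

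Total counts ran from 7613011 to 10483101 per heart, so that 3 counts correspond to 0.286 to 0.394 CPM (read counts scaled to a common library total), and each caffeine-treated heart had a lower total than each vehicle control. Collagen genes took between 0.115% and 0.144% of all counts. The count tables held 0 counts for genes of the mitochondrial genome in every heart, so these shares and all CPM leave such transcripts out. Cardiomyocyte markers such as Myh6 and Tnnt2 were abundant, and the atrial markers Sln and Myl7 did not exceed 0.235 CPM in any heart, which matched the labelled tissue. The rest of the atrial list was not as low. Myl4 was at 0.700 to 1.76 CPM, Nr2f2 at 11.6 to 14.2 CPM and Tbx5 at 22.7 to 39.5 CPM, so the list as a whole did not decide the chamber. Levels are given as CPM scaled with TMM normalization factors, in the order of replicates 1, 2 and 3, and means are given with their SD over the 3 hearts of a group.

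Most collagen genes with enough counts to be tested were higher in the caffeine-treated group, mostly by small amounts. By the main test none reached significance one by one, whereas Col3a1 passed in some of the alternative fits. In bulk tissue such as this, a different number of cells of a type and a different amount of RNA per cell cannot be told apart. The filter on low counts left 23 of the 44 genes, of which 7 were fibrillar, 8 basement membrane and 8 other. Of these, 19 averaged higher in caffeine-treated hearts and 4 lower, against 50.2% of all 13092 tested genes that were higher. The median log2 fold change (caffeine minus vehicle) was 0.25 for the collagen genes and 0.00088 for all tested genes. The highest value was 0.73, for Col3a1, and the lowest was -0.35, for Col27a1.

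By the quasi-likelihood test of edgeR, 0 collagen genes passed an adjusted p below 0.05 together with a fold change above 1.5, where 0.107% of all tested genes did (0.084% higher and 0.0229% lower). By limma-voom, which called 0.107% of all genes as well, 0 collagen genes passed, and by edgeR's exact test and DESeq2 1 passed, Col3a1. Adjusted p-values of the family lay between 0.189 and 0.978. At an unadjusted p below 0.05, 5 collagen genes were higher (Col3a1, Col4a1, Col8a1, Col14a1 and Col1a1) and 0 were lower, whereas 4.42% of all tested genes were higher and 4.4% lower by this measure (8.82% together). Col3a1, Col4a1, Col8a1 and Col14a1 had an unadjusted p below 0.05 in each of the 16 fits made, and Col1a1 in 12 of them. Without vehicle replicate 2, the vehicle control with the highest collagen total, 10 of the 24 collagen genes then tested were higher with such a p, as were 3.88% of all genes. Leaving out that heart can by itself raise this number. The 10 included Col28a1, which passed the filter in that fit only through caffeine replicates 1 and 2. Without the filter on low counts 9 of the 42 collagen genes then fitted were higher at an unadjusted p below 0.05, as were 3.58% of all genes. Col28a1 was among these 9 as well. In 5 genes (Col3a1, Col4a1, Col4a2, Col8a1 and Col14a1) all 3 caffeine-treated hearts lay above all 3 vehicle controls, and in 0 genes below. These levels are TMM-scaled, and by library total alone the groups of Col8a1 overlapped. For all tested genes the shares above and below were 7.11% and 7.12% on the TMM scale. For groups separated in this way, the exact permutation test over the 20 labelings of the hearts always gives p = 0.1. That is the smallest value that 3 against 3 hearts allow, so for these 5 genes the test only restates the separation.

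**Figure D1:**
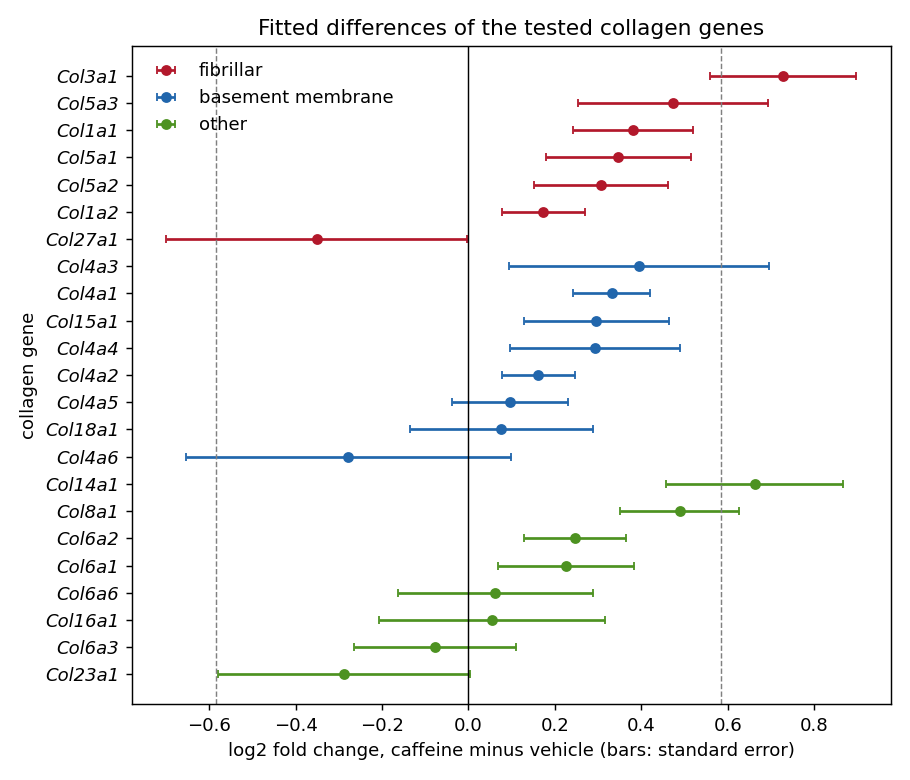
Log2 fold change (caffeine minus vehicle) of the 23 tested collagen genes, coloured by class, with bars for the standard error of the fit and dashed lines at a fold change of 1.5. A total of 19 genes lie to the right of 0, and Col3a1 and Col14a1 lie farthest, at 0.73 and 0.66.

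**Figure D2:**
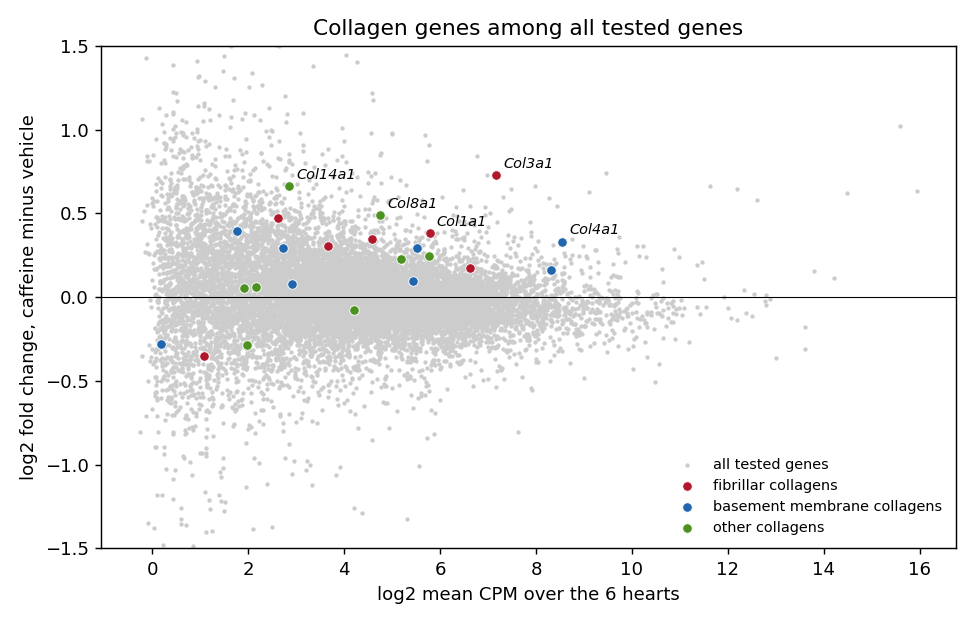
Log2 fold change of every tested gene (grey) against its log2 mean CPM over the 6 hearts, with collagen genes in colour and those with an unadjusted p below 0.05 named. The axis ends at 1.5 on either side, leaving 50 genes out of view, and the named collagen genes lie between 0.33 and 0.73.

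The sequences upstream of Col3a1 and Col8a1 are shown because these are the genes with groups separated on the TMM scale whose window in the RefSeq promoter table (GRCm38.p6) held no annotated exon. They were chosen after their values were seen. Each run gives the 150 bases before the annotated start, 5′ to 3′ on the strand of the gene. Capitals mark the motifs TATAAA and GGGCGG found on either strand (the reverse complement of GGGCGG reads CCGCCC). The Col3a1 window lies at chr1:45311388-45311537 on the plus strand and the Col8a1 window at chr16:57754738-57754887 on the minus strand.
Col3a1: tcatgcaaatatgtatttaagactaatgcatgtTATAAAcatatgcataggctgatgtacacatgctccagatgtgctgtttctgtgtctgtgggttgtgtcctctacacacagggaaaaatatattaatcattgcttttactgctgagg
Col8a1: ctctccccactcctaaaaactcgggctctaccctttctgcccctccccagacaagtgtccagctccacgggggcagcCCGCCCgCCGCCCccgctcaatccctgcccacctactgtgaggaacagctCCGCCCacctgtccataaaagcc
The Col3a1 window had a GC content of 37.3% and 1 TATAAA, a motif that 7.57% of 32851 promoter windows of this length contained. The Col8a1 window had a GC content of 64.7% and 3 copies of GGGCGG, found in 28.6% of all windows, which had a median GC content of 54%. CCAAT, searched on both strands and present in 24.5% of all windows, was found in neither. These matches describe the letters of the windows only. The table held a window for 35 of the 44 genes.

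Among the fibrillar collagens, 6 of the 7 tested genes averaged higher in caffeine-treated hearts, and the median log2 fold change was 0.35. Col3a1 (chromosome 1, 45311538 to 45349706), which encodes the single chain of type III collagen, showed the largest difference of the family. It was at 103, 136 and 83.9 CPM in vehicle controls and at 179.7, 148 and 208 CPM in caffeine-treated hearts. The groups did not overlap, but the highest vehicle control came close to the lowest caffeine-treated heart. The means were 108 ± 26.6 and 178 ± 29.9 CPM, and the log2 fold change was 0.73 (SE 0.17, unadjusted p = 0.0013, edgeR quasi-likelihood adjusted p = 0.189).

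The call for Col3a1 depended on the test. It passed both thresholds in edgeR's exact test (log2 fold change 0.73, adjusted p = 0.0110), which called 0.726% of all genes, and in DESeq2's Wald test (0.73, adjusted p = 0.00221), which called 0.512%. It also passed in the quasi-likelihood test without the filter on low counts (0.71, adjusted p = 1.33e-08), which called 1.07% of 22407 genes. Over all alternatives its log2 fold change ran from 0.58, without vehicle replicate 3, to 0.93, without vehicle replicate 2, and its adjusted p from 1.33e-08 to 0.479. In GENCODE M21 a small part of its exon sequence, 1.44%, is shared with the annotated gene Gm47302 on the same strand.

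The differences of the type I chains were smaller. Col1a1 (chromosome 11, 94936224 to 94953042), the alpha-1 chain, was at 44.5, 59.6 and 39.2 CPM in vehicle controls and at 58.9, 65.0 and 62.7 CPM in caffeine-treated hearts. Vehicle replicate 2 lay within the caffeine-treated range and the other vehicle controls below it. The log2 fold change was 0.38 (SE 0.14, unadjusted p = 0.0200, edgeR adjusted p = 0.425). Col1a2 (chromosome 6), the alpha-2 chain, was at 88.5, 98.8 and 92.5 CPM in vehicle controls and at 93.1, 111.1 and 111.2 CPM in caffeine-treated hearts. Its groups overlapped, with a log2 fold change of 0.17 (SE 0.097, edgeR adjusted p = 0.657) that was 0.09 with scaling by library size alone.

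Type V chains, which are built into type I fibres, were also higher on average. Col5a1 was at 15.9, 25.8 and 21.4 CPM in vehicle controls and at 24.4, 29.8 and 26.0 CPM in caffeine-treated hearts, so vehicle replicate 2 again lay within the caffeine-treated range. Its log2 fold change was 0.35 (SE 0.17, edgeR adjusted p = 0.599), with 0.18 without vehicle replicate 1 and 0.52 without vehicle replicate 2. For Col5a1, 2.50% of the exon bases are shared with genes on the opposite strand. Col5a2 and Col5a3 had log2 fold changes of 0.31 and 0.47 with adjusted p-values of 0.618 and 0.579. The remaining tested fibrillar gene, Col27a1, had a mean of 2.36 ± 0.689 CPM in vehicle controls and 1.85 ± 0.591 CPM in caffeine-treated hearts, a difference within the spread of the hearts.

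**Figure D3:**
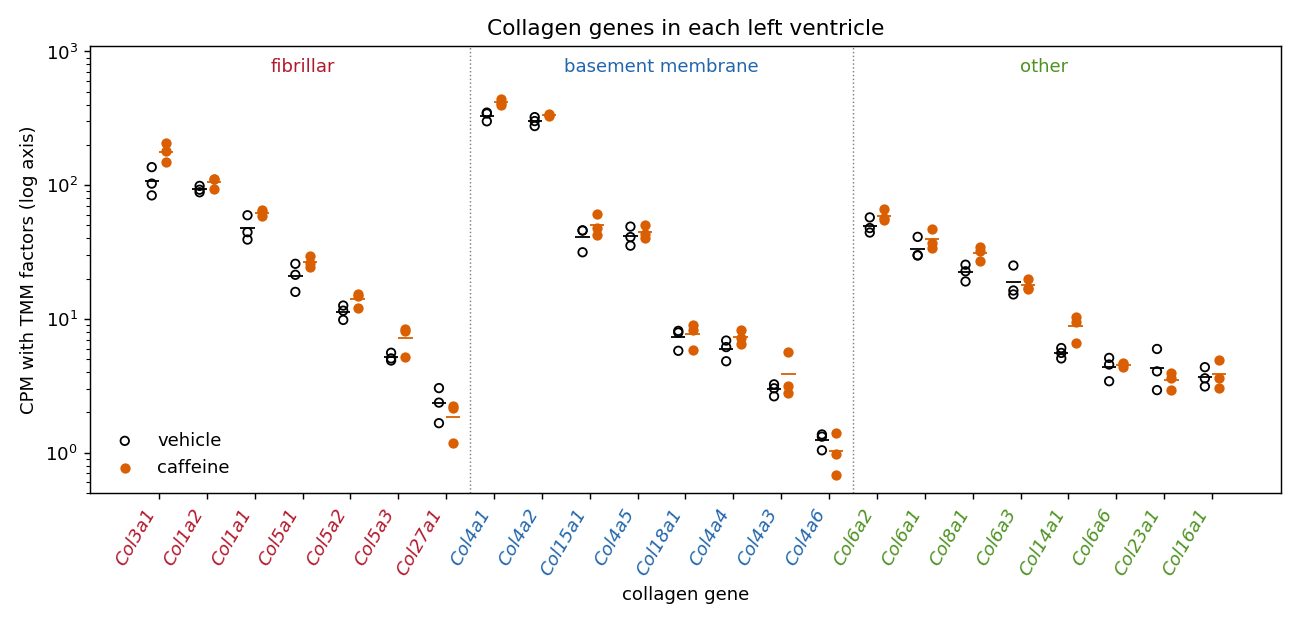
CPM of the 23 tested collagen genes in each of the 6 left ventricles, on a log axis, with open circles for vehicle controls, filled circles for caffeine-treated hearts and a line at each group mean. With TMM scaling, groups are fully separated for Col3a1, Col4a1, Col4a2, Col8a1 and Col14a1, and basement membrane genes Col4a1 and Col4a2 have the most counts.

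All 8 basement membrane genes were tested, and 7 averaged higher in the caffeine-treated group. The median log2 fold change was 0.23. The alpha-1 and alpha-2 chains of type IV collagen, which assemble together in most basement membranes, were the most abundant collagen transcripts. Col4a1 (chromosome 8, 11198423 to 11312826) was at 349, 344 and 300.5 CPM in vehicle controls and at 440.4, 412 and 397 CPM in caffeine-treated hearts. Every caffeine-treated heart was above every vehicle control. The means were 331 ± 26.6 and 416 ± 22 CPM, with a log2 fold change of 0.33 (SE 0.089, unadjusted p = 0.0036, edgeR adjusted p = 0.269).

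Col4a2 (chromosome 8, 11312805 to 11449287) was at 323, 302 and 277 CPM in vehicle controls and at 342, 330.5 and 336 CPM in caffeine-treated hearts. The groups did not overlap here either, but the gap was small. The log2 fold change was 0.16 (SE 0.085, unadjusted p = 0.0833, edgeR adjusted p = 0.634). It was 0.11 without vehicle replicate 3 and 0.08 with scaling by library size alone.

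The other type IV chains were less abundant and overlapped between groups. Col4a5, a chain of the network of the kidney filter and some other basement membranes, was at 40.9, 35.3 and 49.0 CPM in vehicle controls and at 43.3, 50.3 and 40.2 CPM in caffeine-treated hearts, with a log2 fold change of 0.10 (SE 0.13, edgeR adjusted p = 0.896). Its sign changed without vehicle replicate 2, to -0.011, and without caffeine replicate 2, to -0.00084. Col4a3, with the largest log2 fold change of this class, was at 2.64, 3.03 and 3.24 CPM in vehicle controls and at 2.80, 5.64 and 3.17 CPM in caffeine-treated hearts. Caffeine replicate 2 alone lay above the vehicle range. The log2 fold change of 0.39 (SE 0.30, edgeR adjusted p = 0.774) became 0.011 without that heart, and 5.65% of the exon bases of Col4a3 are shared with C430014B12Rik on the opposite strand. Col4a4 and Col4a6 had log2 fold changes of 0.29 and -0.28.

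Of the multiplexins, whose C-terminal fragments are released as anti-angiogenic peptides, Col15a1 was at 45.7, 46.0 and 31.5 CPM in vehicle controls and at 42.1, 61.2 and 47.7 CPM in caffeine-treated hearts. The groups overlapped, with a log2 fold change of 0.30 (SE 0.17, edgeR adjusted p = 0.662) that was 0.13 without caffeine replicate 2. Col18a1, the source of endostatin, had a log2 fold change of 0.08 (SE 0.21).

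Of the 8 other collagen genes tested, 6 averaged higher and 2 lower in the caffeine-treated group, and their median log2 fold change was 0.14. Col8a1 (chromosome 16, 57624258 to 57754737) encodes a short network-forming chain made by vascular cells and fibroblasts. It was at 19.1, 22.7 and 25.4 CPM in vehicle controls and at 27.3, 32.3 and 34.5 CPM in caffeine-treated hearts. The groups did not overlap on this TMM scale. By library total alone they overlapped, since caffeine replicate 1 (195 of 7613011 counts) lay below vehicle replicate 3 (251 of 9228359 counts). The means were 22.4 ± 3.20 and 31.4 ± 3.68 CPM, and the log2 fold change was 0.49 (SE 0.14, unadjusted p = 0.0045, edgeR adjusted p = 0.280). Without the filter on low counts its adjusted p was 0.0357, at a log2 fold change of 0.47 that stayed under the fold change threshold.

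Col14a1 (chromosome 15, 55307750 to 55520803) encodes a collagen that binds to the surface of fibres. It was at 5.57, 6.06 and 5.07 CPM in vehicle controls and at 9.52, 10.4 and 6.57 CPM in caffeine-treated hearts. All caffeine-treated hearts were higher, with caffeine replicate 3 close to the vehicle controls. The log2 fold change was 0.66 (SE 0.21, unadjusted p = 0.0082, edgeR adjusted p = 0.333), and it ran from 0.52 without caffeine replicate 2 to 0.84 without caffeine replicate 3.

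Type VI collagen forms beaded filaments around cells from chains that assemble together. Col6a2 was at 44.3, 57.4 and 47.8 CPM in vehicle controls and at 56.6, 65.8 and 55.0 CPM in caffeine-treated hearts, with a log2 fold change of 0.25 (SE 0.12, edgeR adjusted p = 0.597). Col6a1 was at 29.99, 41.1 and 29.8 CPM in vehicle controls and at 36.7, 47.1 and 34.1 CPM in caffeine-treated hearts, with a log2 fold change of 0.23 (SE 0.16, edgeR adjusted p = 0.739). That value was 0.07 without caffeine replicate 2 and 0.40 without vehicle replicate 2, and for Col6a2 the value was 0.16 without caffeine replicate 2. In both genes vehicle replicate 2 lay within the caffeine-treated range. Col6a3 was at 15.2, 25.1 and 16.3 CPM in vehicle controls and at 16.9, 16.7 and 20.1 CPM in caffeine-treated hearts. Its highest value came from vehicle replicate 2, and the log2 fold change of -0.08 (SE 0.19, edgeR adjusted p = 0.950) became 0.18 without that heart. Col6a6, Col16a1 and Col23a1 had log2 fold changes of 0.06, 0.05 and -0.29, all with overlapping groups.

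Summed over the genes of a class, fibrillar transcripts came to 270.3, 341 and 256 CPM in vehicle controls and to 382, 377 and 429 CPM in caffeine-treated hearts. The caffeine-treated mean of 396 ± 28.7 CPM was 37.0% above the vehicle mean of 289 ± 45.9 CPM, and the groups did not overlap. Col3a1 alone gave 178 and 108 CPM of these means and so most of the difference. Without Col3a1 the sums of the fibrillar class overlapped between groups. Basement membrane transcripts came to 777, 743.5 and 675 CPM in vehicle controls and to 889, 873 and 841 CPM in caffeine-treated hearts, a mean difference of 18.5% with no overlap. Other collagens came to 130.4, 170.4 and 142 CPM against 166, 191 and 168 CPM, and these groups overlapped.

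All 44 genes together gave 1178, 1255 and 1073 CPM in vehicle controls and 1437, 1441 and 1437 CPM in caffeine-treated hearts. On this TMM scale the caffeine-treated hearts were closely alike and each was above each vehicle control, by 23.1% on average. As shares of all counts they were less alike, at 0.135%, 0.139% and 0.144%. The vehicle controls were at 0.115%, 0.131% and 0.115%, again without overlap. The separation remained without Col3a1, when the difference was 18.8%, and without Col4a1 and Col4a2, when it was 27.7%. The share of collagen transcripts in each class did not separate the groups. Fibrillar genes made up 24.7% ± 2.24 of collagen CPM in vehicle controls and 27.5% ± 2.01 in caffeine-treated hearts, and basement membrane genes 62.7% ± 3.38 and 60.3% ± 1.70.

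**Figure D4:**
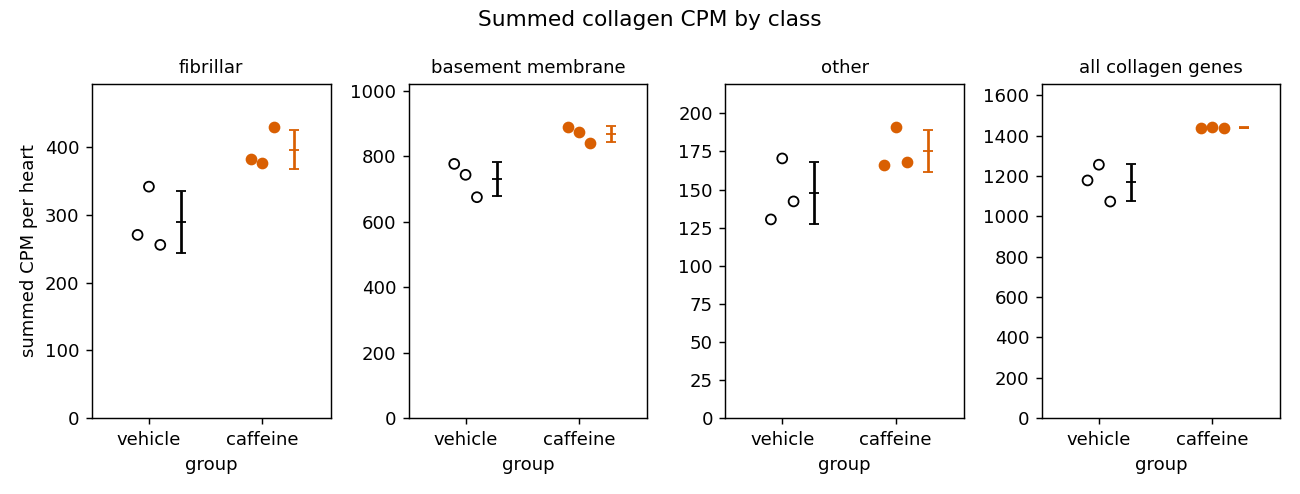
Summed CPM of fibrillar, basement membrane, other and all collagen genes in each heart, with open circles for vehicle controls, filled circles for caffeine-treated hearts and bars for the mean ± SD of 3 hearts. Each axis starts at 0, and the caffeine-treated hearts lie above the vehicle controls for fibrillar, basement membrane and all collagen genes but overlap with them for the other class.

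Heart by heart, the median collagen gene stood at -0.07, 0.10 and -0.03 log2 units from the vehicle mean in vehicle replicates 1, 2 and 3, on the scale of log2(CPM + 0.5). It stood at 0.19, 0.28 and 0.15 log2 units in caffeine replicates 1, 2 and 3. Caffeine replicate 2 had the highest level of the 6 hearts in 9 of the 23 tested genes, caffeine replicate 1 in 6 and caffeine replicate 3 in 4. The lowest level fell in vehicle replicate 3 for 9 genes and in vehicle replicate 1 for 8. Vehicle replicate 2 was the lowest in 3 genes and the highest in 2, so it stood between the other vehicle controls and the caffeine-treated hearts.

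Levels between genes were compared per kilobase of annotated exon, averaged over the 6 hearts. Col4a1 and Col4a2 had the highest levels, at 50.1 and 48.1 CPM per kb, and Col3a1 followed at 14.6 CPM per kb. Col1a1, Col6a1 and Col1a2 were close together at 8.38, 8.32 and 7.98 CPM per kb, and their ranges over hearts overlapped. When the length of the longest transcript was used instead, Col1a2 moved to 18.5 CPM per kb and Col1a1 to 9.28 CPM per kb, so that the order of the type I chains depended on the length chosen. Among the tested genes Col4a6 was lowest by either length, at 0.142 CPM per kb of exon. In counts not scaled by length, Col4a1, Col4a2, Col3a1 and Col1a2 together held 71.7% of all collagen CPM.

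Ratios between chains of the same or neighbouring fibres were compared within each heart, since they do not depend on the scaling of the libraries. The ratio of Col4a1 to Col4a2 counts was 1.08, 1.14 and 1.09 in vehicle controls and 1.29, 1.25 and 1.18 in caffeine-treated hearts. All caffeine-treated hearts were above all vehicle controls, with a log2 difference of 0.17 (exact permutation p = 0.1, adjusted p = 0.4 over the 4 ratios examined). The ratio of Col1a1 to Col1a2 was 0.503, 0.603 and 0.424 in vehicle controls and 0.633, 0.585 and 0.564 in caffeine-treated hearts, which overlapped (exact p = 0.3, adjusted p = 0.4). The ratio of Col1a1 to Col3a1 was 0.433, 0.437 and 0.467 in vehicle controls and 0.328, 0.440 and 0.302 in caffeine-treated hearts, which also overlapped (exact p = 0.3, adjusted p = 0.4). The ratio of Col6a1 to Col6a2 was between 0.620 and 0.715 in all 6 hearts, with a log2 difference of -0.02 (exact p = 0.8, adjusted p = 0.8).

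**Figure D5:**
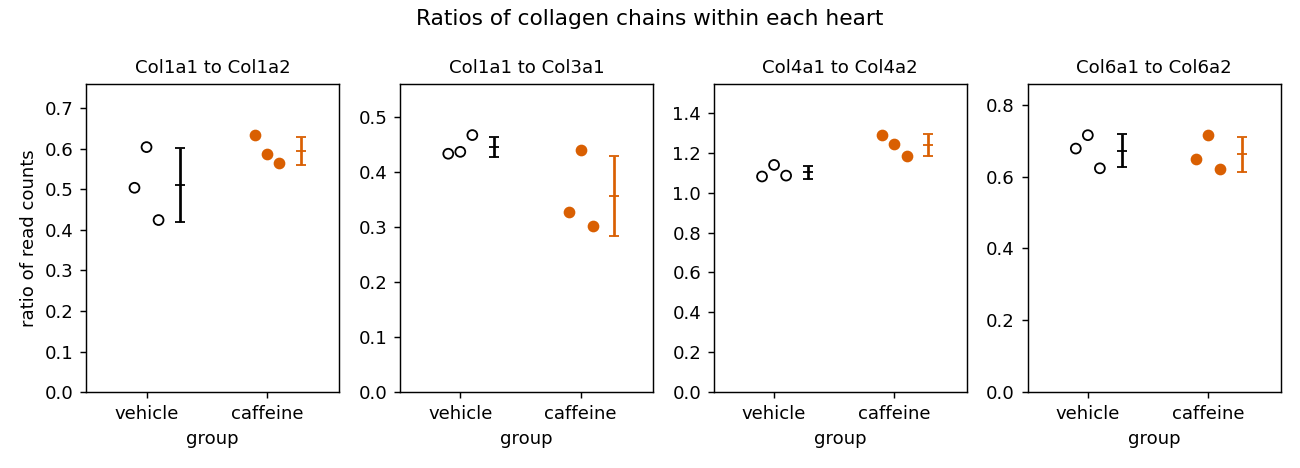
Ratio of read counts of collagen chain pairs within each heart, with open circles for vehicle controls, filled circles for caffeine-treated hearts and bars for the mean ± SD of 3 hearts. The Col4a1 to Col4a2 ratio is between 1.08 and 1.14 in vehicle controls and between 1.18 and 1.29 in caffeine-treated hearts, and the other ratios overlap.

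Several collagen genes are neighbours, and 12 pairs lie within 500 kb of each other. The type IV genes are arranged head to head, their starts side by side and their transcription running in opposite directions. Col4a1 and Col4a2 overlap by 22 bases on chromosome 8 and had log2 fold changes of 0.33 and 0.16. Col4a4 and Col4a3 lie 71 bases apart on chromosome 1 (0.29 and 0.39), and Col4a6 and Col4a5 lie 1308 bases apart on chromosome X (-0.28 and 0.10). Col3a1 and Col5a2 are tail to tail on chromosome 1 with 24.6 kb between them and log2 fold changes of 0.73 and 0.31. Col6a2 and Col6a1 lie in tandem 85.2 kb apart on chromosome 10 (0.25 and 0.23), and Col18a1, 326 kb from Col6a1, was at 0.08. On chromosome 9, Col6a6 (0.06) lies in tandem with Col6a5 and Col6a4, which were not tested. The pairs Col9a1 with Col19a1 and Col9a3 with Col20a1 were also too low to test.

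The 21 genes that the filter removed together held 0.482% of collagen counts. They included the cartilage genes Col2a1 and Col9a1, with 0 counts in all hearts, which allows levels of up to 0.286 to 0.394 CPM, and 10 genes in all had fewer than 10 counts over the 6 hearts. No single count of these genes exceeded 16. In Col8a2, the partner of Col8a1, 5, 5 and 5 counts in vehicle controls stood against 4, 16 and 6 in caffeine-treated hearts. Col28a1, a collagen of peripheral nerve, had 3, 7 and 3 counts in vehicle controls and 14, 12 and 2 in caffeine-treated hearts. Both are too low for a firm statement, and in the fit without the filter Col28a1 had an unadjusted p of 0.0148 and an adjusted p of 0.336. The genes for hypertrophic cartilage (Col10a1), anchoring fibrils of skin (Col7a1) and fibres of cartilage (Col11a1) had 13, 4 and 4 counts in total, so that differences in them were not detectable at this depth.

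Genes that process collagen were examined next. Of 32 genes for collagen biosynthesis and crosslinking, 29 were tested, 22 averaged higher and 7 lower in caffeine-treated hearts, and the median log2 fold change was 0.12. Of all genes of the biosynthesis, degradation, receptor and basement membrane partner lists, 0 passed both thresholds by the quasi-likelihood test, the exact test, DESeq2 or limma-voom, and of the 56 tested 5 were higher and 3 lower at an unadjusted p below 0.05, where 4.42% and 4.4% of all tested genes were. Sparc, a collagen-binding matrix protein, had a log2 fold change of 0.35 (quasi-likelihood adjusted p = 0.196, DESeq2 adjusted p = 0.0325). P4ha1 and P4hb, subunits of the prolyl 4-hydroxylase that stabilizes the triple helix, had log2 fold changes of 0.43 and 0.19 (adjusted p = 0.287 and 0.533). P3h4, part of a complex that modifies collagen in the endoplasmic reticulum, averaged lower at -0.49 (adjusted p = 0.422). In the fit without the filter on low counts the adjusted p was 0.0125 for P4ha1 and 0.0160 for P3h4, both under the fold change threshold. The lysyl oxidases Lox, Loxl1 and Loxl2, which crosslink fibres, had log2 fold changes of 0.41, 0.33 and 0.38 with adjusted p-values of 0.727, 0.609 and 0.635. Loxl3 and Loxl4 were at 0.05 and 0.60 (adjusted p = 0.980 and 0.703), and the groups overlapped in each lysyl oxidase gene. The summed level of the list was 1466 to 1555 CPM in vehicle controls and 1656 to 1820 CPM in caffeine-treated hearts.

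Of 15 genes for collagen degradation and its inhibitors, 10 were tested, with 7 higher, 3 lower and a median of 0.11. Ctsk, a collagen-cleaving cathepsin at 1.04 CPM in vehicle controls and 2.77 CPM in caffeine-treated hearts on average, had a log2 fold change of 1.41 (adjusted p = 0.413). Ctsk passed the thresholds in the fit without the filter on low counts (adjusted p = 0.0181). It was at 2.15, 0.568 and 0.405 CPM in vehicle controls, so in the main fit it passed the filter mainly through the caffeine-treated hearts. The membrane protease gene Mmp15 and the protease inhibitor gene Timp3 averaged lower, at -0.29 and -0.23 (adjusted p = 0.422 and 0.439). Collagen receptors, such as the integrin Itga1 and the discoidin domain receptor Ddr2, had 2 genes higher and 4 lower among 6 tested, with a median of -0.05 and 0 genes at an unadjusted p below 0.05. Partners of type IV collagen in the basement membrane (laminins, nidogens, perlecan, agrin and peroxidasin) were all tested, with 10 of 11 higher and a median of 0.08. Only Pxdn, which crosslinks the type IV network, had an unadjusted p below 0.05 in this list (log2 fold change 0.38, adjusted p = 0.352).

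Markers of the cell types of the ventricle were measured in the same hearts. All 8 fibroblast markers averaged higher in the caffeine-treated group, at a median log2 difference of 0.27, and Dcn, Lum and Gsn (0.28, 0.26 and 0.30) had an unadjusted p below 0.05. Their summed level was 1664 to 1946 CPM in vehicle controls and 1960 to 2521 CPM in caffeine-treated hearts, and its part in the collagen differences was not tested. Gsn and Dcn made up most of it, at means of 987 and 552 CPM in vehicle controls and 1218 and 670 CPM in caffeine-treated hearts. The sums of the remaining fibroblast markers overlapped between groups. Of the activated fibroblast markers, 3 were higher and 4 lower among the 7 tested, with a median of -0.08. Postn was at 0.68 (adjusted p = 0.228) and Meox1 at 0.54 (adjusted p = 0.226), both with an unadjusted p below 0.05, and Ltbp2 was at 0.44, while Fap was at -0.64, Acta2 at -0.31, Comp at -0.16 and Fn1 at -0.08. The sums of this list overlapped, at 109.8 to 155 CPM in vehicle controls and 112 to 155 CPM in caffeine-treated hearts. All 7 macrophage markers averaged higher, with a median of 0.49, and Adgre1 (0.93, adjusted p = 0.226) and Fcgr1 (0.82, adjusted p = 0.512) had an unadjusted p below 0.05. Their sums of 172 to 272 CPM and 207 to 405 CPM overlapped.

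Of the 8 cardiomyocyte markers, 7 averaged lower in caffeine-treated hearts, with a median of -0.09 and Ttn, the giant spring of the sarcomere, at -0.37 (adjusted p = 0.302). Their sums were 59287 to 68537 CPM in vehicle controls and 56514 to 61997 CPM in caffeine-treated hearts. Endothelial markers, from a cell type that makes type IV collagen, had 4 genes higher and 4 lower, a median of 0.02 and overlapping sums of 708 to 822 CPM and 739.6 to 788 CPM. Pericyte and smooth muscle markers had 5 higher and 3 lower, with a median of 0.03 and overlapping sums of 1123 to 1243 CPM and 1106 to 1315 CPM. Schwann cell markers had 2 of 3 tested genes higher and overlapping sums of 8.71 to 11.5 CPM and 11.1 to 13.1 CPM. Chondrocyte and valve markers had 1 of 2 higher, with sums of 2.93 to 8.61 CPM and 6.33 to 10.7 CPM and with the cartilage marker Matn1 at 0 counts in all hearts. Epicardial markers had 2 of 3 higher, with sums of 8.91 to 17.6 CPM and 11.3 to 18.5 CPM, and erythroid markers had 2 of 4 higher, with sums of 712 to 1332 CPM and 769.5 to 1627 CPM. All 3 tested atrial markers averaged lower, and the list summed to 46.4 to 52.8 CPM in vehicle controls and to 35.3 to 39.99 CPM in caffeine-treated hearts. They included Tbx5, which ventricular myocytes also express, at -0.53 (adjusted p = 0.193). No adipocyte marker was abundant enough to test, with sums of 0.608 to 3.13 CPM in vehicle controls and 0.113 to 0.586 CPM in caffeine-treated hearts.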

How the data were processed

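Left ventricular poly(A) RNA of 6 mice was measured. Per the labels and the study's methods, the authors sequenced single-end reads, used FastQC, mapped them with TopHat2 to mm10 (GRCm38) and obtained gene counts from HTSeq. These raw counts were deposited without normalization or pooling and used as they are. The library kit did not mark strand. Groups came from the sample labels. Genes were filtered with filterByExpr (minimum count 10, minimum total 15), scaled by TMM and fitted by glmQLFit and glmQLFTest in edgeR 4.0.16 (R 4.3.3), with Benjamini-Hochberg adjustment over 13092 genes. The common dispersion was 0.0145. Positions, exon lengths and shared exon bases came from GENCODE M21, promoter windows from RefSeq, and 1167 of 43629 identifiers had no symbol. The study names an Ensembl release as its reference annotation. Whether the overlapping genes were part of it, and so affected the counts, was not checked. Collagen classes were assigned by hand. Values are given per heart for the 4 most abundant genes of each class, genes at an unadjusted p below 0.05 and the largest change of each class. The members and lists were chosen with earlier results of these data known. Alternatives were edgeR's exact test, DESeq2 1.42.0, limma-voom (limma 3.58.1), other scalings and filters, a replicate block and each heart left out. A fit without the 10 genes with the highest counts was chosen after seeing the data. Counting error alone underlies the 3-count limits. The authors' comparison and other generations were not used here.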

Additional observations from a re-analysis of the deposited data

How the results depend on the processing

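Of 210 values of the 14 collagen genes given per heart under 15 alternatives, 207 kept their direction. The others were Col4a5 at -0.011 without vehicle replicate 2 and -0.00084 without caffeine replicate 2 (range -0.011 to 0.23 with a heart left out), and Col6a3 at 0.18 without vehicle replicate 2 (range -0.21 to 0.18). The collagen genes called higher went from 0 to 1 (Col3a1) in the exact test, DESeq2 and the fit without a filter, and without the fold change threshold to 1, 1 and 2. The cause was not tested. Those at an unadjusted p below 0.05 went from 5 of 23 to 9 of 42 without a filter. Their number was 8 with the replicate block (4.47% of all genes) and between 4 and 10 with a heart left out. The 10, of 24 tested without vehicle replicate 2, included Col28a1, which the main filter removed. The median log2 fold change of fibrillar genes ran from 0.26 to 0.52 with a heart left out, that of basement membrane genes from 0.15 to 0.27, of other genes from 0.12 to 0.36 and of all collagen genes from 0.17 to 0.36. Scaling by library size alone moved the basement membrane median to 0.14, the biosynthesis median to 0.038, the receptor median to -0.13 and the median of all genes to -0.084, and the log2 ratio of summed CPM from 0.25 to 0.16 for basement membrane genes and from 0.30 to 0.22 for all collagen genes. At least 10 counts in every heart gave a basement membrane median of 0.30 and an all-gene median of 0.0055, and no filter gave an all-gene median of -0.020. With a heart left out the all-gene median ran from -0.0038 to 0.0040, and the Col6a1 to Col6a2 log2 ratio from -0.081 to 0.023, with 0.023 without vehicle replicate 2 and 0.022 without caffeine replicate 3.

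Over all genes, 11 were called higher and 3 lower. The exact test called 62 and 33, DESeq2 39 and 28, the fit without a filter 145 and 95, and the replicate block 29 and 11. Library size alone called 15 lower. With a heart left out the calls ran from 4 to 17 higher and from 0 to 13 lower. At an unadjusted p below 0.05, 579 genes were higher, against 373 in DESeq2 and 287 by library size alone, and 576 lower, against 1199 by library size alone and 987 without a filter. For the pathway lists, 1 gene (Ctsk) was called higher without a filter. Those at an unadjusted p below 0.05 went from 5 to 3 by library size alone and to 9 without a filter, and those lower from 3 to between 0 and 4 with a heart left out. No pairing of the hearts by replicate number was evident. Deviations of same-numbered hearts correlated between -0.038 and 0.045, and 2 of 6 hearts correlated best with their own number.

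With 3 hearts per group and standard errors of 0.085 to 0.376 on the log2 scale, most differences of the collagen genes are within what the spread of these hearts allows, and the 21 genes below the filter were too low to test.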
